A study of Mus musculus with 20 samples.

Results

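Mouse induced pluripotent stem cell (iPSC) lines made with the factor set SNEL (Sall4, Nanog, Esrrb and Lin28) were compared with embryonic stem cell (ESC) lines. The SNEL group held every array whose title names SNEL, which gave 6 arrays of 3 lines (Nanog-GFP SNEL#3 and SNEL#2, and Oct4-GFP SNEL#1). The ESC group held 6 arrays of 3 lines, named KH2, Nanog-GFP and Oct4-GFP, so that 12 of the 20 arrays of the study entered the comparison. The other 8 arrays came from 4 iPSC lines made with OSKM (Oct4, Sox2, Klf4 and Myc), which served for the shared estimate of spread and for a direct contrast. The labels grade Nanog-GFP SNEL#3 as good and both other SNEL lines as high quality, without saying how the grade was obtained. Every line was kept feeder-free in 2i medium and received no treatment. No strain, sex, passage number or transgene removal is given, Nanog-GFP and Oct4-GFP appear only as parts of the line names, and 3 lines a group is all that the comparison rests on.

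Naive mouse pluripotent cells in 2i medium are held in self-renewal by inhibitors of MEK and of GSK3, which lower ERK signalling and raise Wnt signalling. Their identity rests on a network of transcription factors around Oct4, Sox2, Nanog, Esrrb and Klf4, in which Sall4 takes part, while the RNA-binding protein Lin28 blocks maturation of let-7 microRNAs. The SNEL set therefore leaves out every member of the OSKM set. IPSC lines are commonly judged against ESC lines for the network itself, for imprinted loci such as Dlk1-Dio3, and for leftover or lost expression of genes of other lineages.

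Each level is the log2 of a gene's signal over the 75th percentile of its array, as the mean of a line's 2 arrays, and n counts lines (3 SNEL and 3 ESC). Whether those 2 arrays stem from separate cultures is not stated, and p-values measure only the spread between these lines. Fewer probes were detected in SNEL lines when the 2 arrays of a line were averaged. The share of probes well above background was 50.1% in Nanog-GFP SNEL#3, 57.3% in Nanog-GFP SNEL#2 and 58.8% in Oct4-GFP SNEL#1, against 62.6% in KH2, 65% in Nanog-GFP and 66% in Oct4-GFP ESCs. The line means did not overlap (55.4% ± 4.61 against 64.5% ± 1.71, SD, n = 3 each, exact two-sided permutation p = 0.1, the smallest that 3 against 3 lines allow). For Oct4-GFP SNEL#1 this rests on its slide 1 array (49.5%), since its second array, at 68%, lay within the range of the ESC arrays of its slide (65.4% to 68.1%). The 3 first arrays of the SNEL lines lay on slide 1 with the first KH2 ESC array, and the first arrays of the other ESC lines lay on slide 2.

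With limma and Benjamini-Hochberg adjustment over 27161 genes, 0 genes (0%) passed an adjusted p of 0.05 between SNEL and ESC lines, and the lowest adjusted p was 0.153. At an unadjusted p under 0.05 there were 2184 genes, of which 387 were higher in SNEL lines (1.42% of genes tested) and 1797 lower (6.62%), so 82.3% of them were lower. This split turned to 34.8% lower with normexp background correction and to 30.1% lower without the filter on dim probes. With the 20 arrays fitted singly it was 60.9% with line as a random block and 65.2% with slide as a block. All 3 SNEL lines lay above all 3 ESC lines in 766 genes (2.82%) and below them in 2855 genes (10.5%). Among the 18551 genes above background on all 12 arrays, 232 were higher and 791 lower at an unadjusted p under 0.05. By size of the mean difference alone the excess was not on the lower side. Of all genes tested 502 were over 2-fold higher and 440 over 2-fold lower, and of the 18551 genes 108 and 102. The median difference over all genes tested was -0.05, and single SNEL and ESC lines lay 0.577 to 0.895 apart (root mean square log2 difference over all genes), against 0.506 to 0.719 between ESC lines and 0.555 to 1.02 between SNEL lines.

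The widest separations between the groups included Gm10499, Ubd and Trim12a, which were expressed in every ESC line and near background on nearly all SNEL arrays. A gap of over 1 log2 unit between the nearest SNEL and ESC lines was found in 32 genes lower and 12 genes higher in SNEL lines. Of the 32 lower genes, 15 (46.9%) lay on chromosome 17, which holds 5.17% of the genes tested. They include Ubd, which encodes a ubiquitin-like modifier induced by inflammatory cytokines, and H2-T3, a non-classical histocompatibility class I gene. Trim12a and Trim34a, neighbouring members of the tripartite-motif family on chromosome 7, and Olig1 and Olig2, helix-loop-helix factors of the oligodendrocyte and motor neuron lineages on chromosome 16, were also among the 32.

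The 250 bases before the annotated start of 4 of these genes are shown because these genes are among the 32 with the widest gaps (RefSeq, build GRCm38.p6, 5′ to 3′ on the strand of the gene). Capitals mark the letters TATAAA. Ubd starts after chr17:37193642-37193891 on the plus strand, H2-T3 after chr17:36190152-36190401 on the minus strand, Trim12a after chr7:104315496-104315745 on the minus strand and Olig2 after chr16:91225300-91225549 on the plus strand.
Ubd: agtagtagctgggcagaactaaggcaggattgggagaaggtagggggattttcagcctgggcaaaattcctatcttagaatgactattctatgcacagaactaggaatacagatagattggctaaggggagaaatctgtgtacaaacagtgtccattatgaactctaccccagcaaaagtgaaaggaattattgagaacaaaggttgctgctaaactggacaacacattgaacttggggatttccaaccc
H2-T3: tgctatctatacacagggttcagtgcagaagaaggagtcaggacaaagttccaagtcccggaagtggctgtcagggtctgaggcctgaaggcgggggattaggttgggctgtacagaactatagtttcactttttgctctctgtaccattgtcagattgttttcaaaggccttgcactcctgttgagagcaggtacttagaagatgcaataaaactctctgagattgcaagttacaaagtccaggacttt
Trim12a: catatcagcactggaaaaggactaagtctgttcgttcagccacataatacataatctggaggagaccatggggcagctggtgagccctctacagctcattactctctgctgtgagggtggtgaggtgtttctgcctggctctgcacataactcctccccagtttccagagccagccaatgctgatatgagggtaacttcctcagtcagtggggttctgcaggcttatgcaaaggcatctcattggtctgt
Olig2: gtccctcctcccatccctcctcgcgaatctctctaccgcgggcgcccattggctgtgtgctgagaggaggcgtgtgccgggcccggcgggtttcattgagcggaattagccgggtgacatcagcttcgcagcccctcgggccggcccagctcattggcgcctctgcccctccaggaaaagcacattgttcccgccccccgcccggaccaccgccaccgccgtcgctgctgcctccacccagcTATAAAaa
A search of both strands for TATAAA, for the core of the interferon-stimulated response element (GAAA, any 2 bases, GAAA), TTCCNGGAA (gamma-activated site), AAGGTCA (Esrrb core), ATTTGCAT (octamer) and CACGTG (E-box) found only TATAAA before Olig2, from base 8 to base 3 before the start, whereas TATAAA most often began 30 or 29 bases before the start over all windows. Over 32851 RefSeq windows of the same 250 bases, TATAAA was present in 12.4%, the interferon element core in 2.98%, TTCCNGGAA in 0.913%, AAGGTCA in 4.08%, ATTTGCAT in 1.6% and CACGTG in 6.02%. The letters of these motifs are thus not in the windows of Ubd, H2-T3 and Trim12a, and nothing follows from that for the factors that bind them.

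Ubd was -6.38, -7.18 and -7.35 in Nanog-GFP SNEL#3, Nanog-GFP SNEL#2 and Oct4-GFP SNEL#1, against 1.72, 0.86 and 1.65 in KH2, Nanog-GFP and Oct4-GFP ESCs. It was well above background on 6 of 6 ESC arrays and on 0 of 6 SNEL arrays, and its level in SNEL lines was at least 81.7-fold lower (means -6.97 and 1.41, limma adjusted p = 0.506). Such a bound sets the brighter group against the higher of the dim probe's own level and the lowest level well above background on each array. Ubd was also low in Oct4-GFP OSKM#2 (-8.12) and BC_2 OSKM (-7.71), and near the ESC level in Nanog-GFP OSKM#2 (2.7) and KH2_OSKM (2.1). H2-T3 was -6.55, -6.94 and -6.88 in the SNEL lines and -2.93, -4.06 and -3.39 in the ESC lines, at least 2.79-fold lower, and was detected on 0 of 6 SNEL arrays (means -6.79 and -3.46, limma adjusted p = 0.419).

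Around them, a stretch of chromosome 17 from Mucl3 to Ubd (35772766 to 37332747 in mm9, the build of the probe coordinates) was read after these values were seen. It held 70 genes tested, of which 20 (28.6%) had all SNEL lines below all ESC lines and 1 had them above, beside 10.5% and 2.82% over all genes. The median difference over the 70 genes was -0.2, and 9 genes had a gap of over 1. The outermost of these 9 genes set the ends of the stretch, and all 9 are among the 20 by definition. The share of 28.6% is raised by that choice and is no test against 10.5%. The predicted gene Gm10499 was above background on 1 of 6 SNEL arrays and 6 of 6 ESC arrays, at -6.25, -7.05 and -4.28 in the SNEL lines against 3.77, 4.14 and 3.96 in the ESC lines (limma adjusted p = 0.419). The OSKM line Oct4-GFP OSKM#2 lay below every ESC line in all 9 genes with a gap of over 1, and in 36 of the 70 genes of the stretch. It lay over 1 below every ESC line in 27 of the 32 widest lower genes, against 9 for Nanog-GFP OSKM#2, 3 for KH2_OSKM and 10 for BC_2 OSKM. Those 32 genes were picked partly by their high ESC levels, and the same share over all genes tested was not counted.

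**Figure D1:**
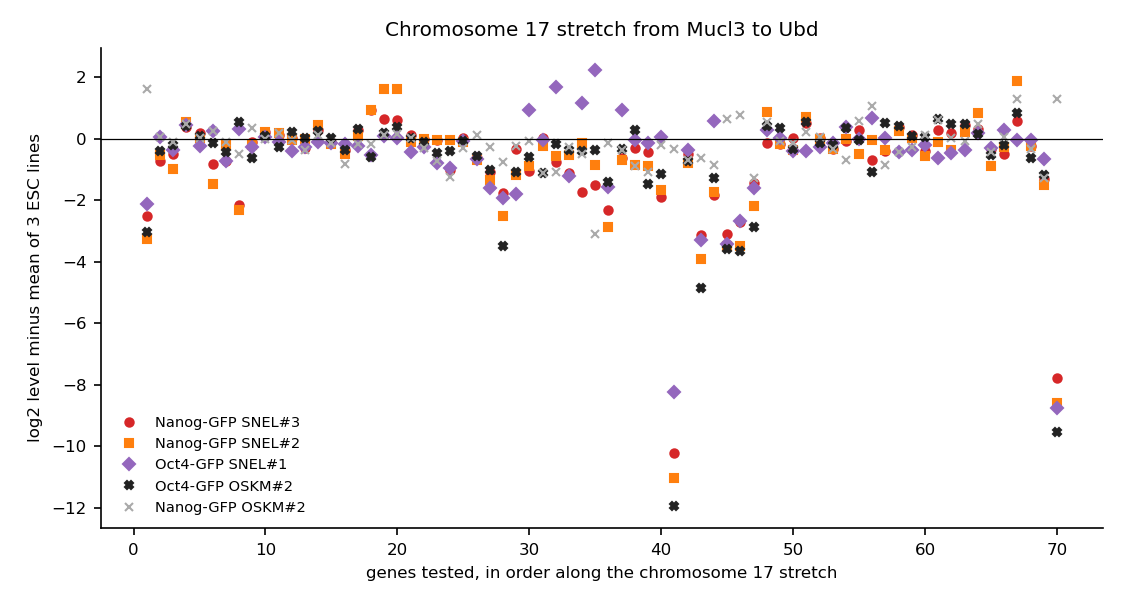
Each point is 1 gene in 1 line: the log2 level minus the mean of the 3 ESC lines (vertical axis) against the order of the 70 tested genes along the chromosome 17 stretch (horizontal axis), for the 3 SNEL lines and 2 OSKM lines. Most points lie near 0, while Gm10499 and Ubd lie 7 or more below it in all SNEL lines and in Oct4-GFP OSKM#2 and not in Nanog-GFP OSKM#2.

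Trim12a was -6.19, -5.05 and -5.77 in Nanog-GFP SNEL#3, Nanog-GFP SNEL#2 and Oct4-GFP SNEL#1, against 1, 0.83 and 0.75 in the ESC lines (difference -6.53 ± 1.81, SE, limma adjusted p = 0.414). Its probe was well above background on 1 of 6 SNEL arrays and 6 of 6 ESC arrays, and a second probe of the gene differed by -4.28. Trim34a was -3.52, -3.81 and -2.79 in the SNEL lines and -0.51, 0.08 and -0.6 in the ESC lines (-3.03 ± 1.09, SE, adjusted p = 0.529), but a second probe of Trim34a differed by only -0.13. Both were also low in Oct4-GFP OSKM#2, at -6.65 and -4.49, and in none of the other OSKM lines. That line widens the shared spread: without Oct4-GFP OSKM#2, 4 genes passed the threshold as lower in SNEL lines (Trim12a, Gm10499, 2410017I17Rik and Trim34a). In a fit of the SNEL and ESC lines alone 3 passed (Ubd, Trim12a and 2410017I17Rik).

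Olig1 was -5.41 in Nanog-GFP SNEL#3, -5.98 in Nanog-GFP SNEL#2 and -0.16 in Oct4-GFP SNEL#1, against 1.81, 1.76 and 1.18 in the ESC lines (-5.43 ± 1.27, SE, limma adjusted p = 0.392). Olig2 was lowest in Nanog-GFP SNEL#3, at -6.24, -4.06 and -2.09 against 0.95, 0.22 and 0.27 (-4.61 ± 0.86, SE, adjusted p = 0.392). The Nanog-GFP SNEL lines were the lowest in both genes, and Oct4-GFP SNEL#1 lay between them and the ESC lines. The 2 arrays of Nanog-GFP SNEL#2 disagreed for Olig2 (-2.23 and -5.89). Every OSKM line also lay below every ESC line in both genes, at -0.06 to 1.01 for Olig1 and -1.13 to 0.03 for Olig2 (OSKM minus ESC -1.01 and -1.08). For Olig1 the lowest OSKM line was close to Oct4-GFP SNEL#1. Olig1 was above background on 2 of 6 SNEL arrays and Olig2 on 3 of 6. Without Oct4-GFP SNEL#1, Olig1 was among 47 genes that passed the threshold (7 higher and 40 lower); both SNEL lines then bear the name Nanog-GFP.

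Other genes with non-overlapping, lower levels in SNEL lines were Tmc7, a transmembrane channel-like gene (difference -3.88 ± 1.17, SE), Tiam2, an activator of the Rac GTPase (-2.45 ± 0.6, SE), Ube2l6, the conjugating enzyme for the interferon-induced modifier Isg15 (-2.19 ± 0.57, SE), and Gdpd3, a phosphodiesterase (-2.8 ± 0.9, SE). Ube2l6 was at 1.82, 0.85 and 2.33 in SNEL lines and 4.03, 3.43 and 4.1 in ESC lines, so it was still well detected on all arrays. A second probe of Tmc7 differed by -0.13. None of these passed the adjusted threshold (limma adjusted p between 0.392 and 0.481 for Tiam2, Ube2l6, Tmc7 and Gdpd3). The OSKM line Oct4-GFP OSKM#2 lay within the SNEL range for Tmc7 (-2.21), Tiam2 (-0.82) and Gdpd3 (-5.26). BC_2 OSKM did so for Tiam2 (-0.57) and Ube2l6 (2.01). Nanog-GFP OSKM#2 and KH2_OSKM lay above the SNEL lines in all of these genes.

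**Figure D2:**
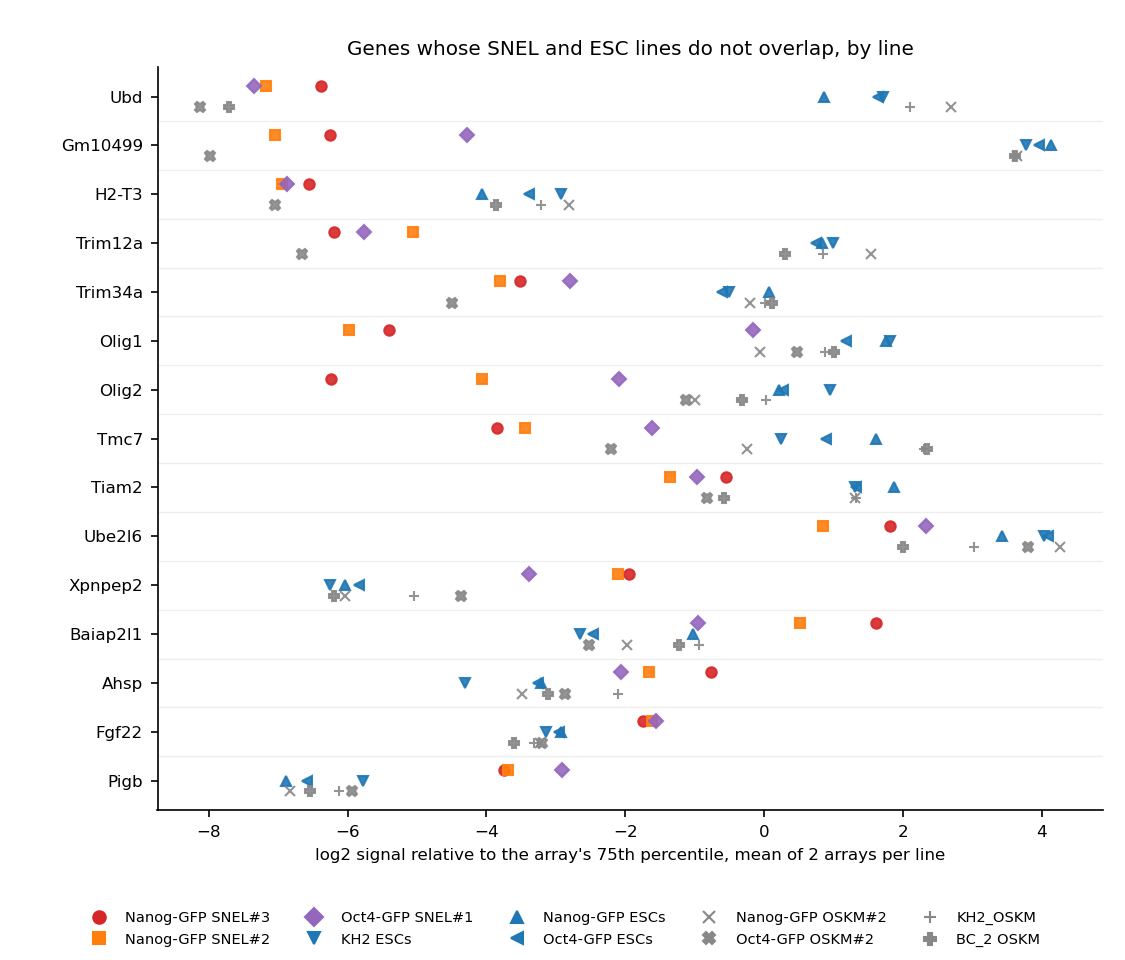
Each marker is the level of a gene in 1 line, as log2 signal relative to the array's 75th percentile and averaged over 2 arrays (SNEL lines in colour, ESC lines in blue, OSKM lines in grey). The 15 genes were chosen because the 3 SNEL lines lie apart from the 3 ESC lines, as they do in 2.82% (higher) and 10.5% (lower) of all genes tested. The OSKM line Oct4-GFP OSKM#2 lies with the SNEL lines in Ubd, Gm10499, H2-T3, Trim12a, Trim34a, Tmc7 and Tiam2. BC_2 OSKM lies with them in Ubd, Tiam2 and Ube2l6.

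Fewer genes had all SNEL lines above all ESC lines than below them (766 against 2855). Among the higher ones Xpnpep2, which encodes a membrane-bound aminopeptidase, had the widest gap of the genes with a full symbol. It was -1.94, -2.11 and -3.38 in Nanog-GFP SNEL#3, Nanog-GFP SNEL#2 and Oct4-GFP SNEL#1, against -6.26, -6.03 and -5.83 in the ESC lines (3.56 ± 0.53, SE, limma adjusted p = 0.392). Its probe was well above background on 6 of 6 SNEL but only 3 of 6 ESC arrays, so the size of the difference depends on levels near background. The difference was 2.31, 3.22 and 3.25 within slides 1, 2 and 3. Baiap2l1, an actin-bundling adaptor, was 1.62, 0.52 and -0.95 in SNEL lines against -2.65, -1.02 and -2.46 (2.43 ± 0.7, SE, adjusted p = 0.43). Its lowest SNEL line nearly met its highest ESC line. Ahsp, a chaperone of alpha-haemoglobin, was -0.76, -1.66 and -2.06 against -4.31, -3.21 and -3.26 (2.1 ± 0.46, SE, adjusted p = 0.392). Prickle1, of the planar cell polarity pathway, was 1.71, 1.04 and 0.76 against -0.45, -0.18 and -0.69 (1.61 ± 0.42, SE, adjusted p = 0.395), and was above background on all 12 arrays.

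Tnik, a kinase that acts on the Wnt effector TCF4, was -1.48, -1.93 and -1.62 in SNEL lines and -2.91, -2.8 and -3.18 in ESC lines (1.29 ± 0.22, SE, limma adjusted p = 0.392). Its difference was alike within the slides, at 1.29, 1.19 and 1.29. The OSKM lines, at -1.42, -1.65, -2.12 and -1.37, were as high as the SNEL lines (SNEL minus OSKM -0.03, adjusted p = 0.97). Tnik passed the threshold when the 20 arrays were fitted singly with line as a random block, with LOC100047302 and Tchh. Tchh, which encodes the hair-follicle protein trichohyalin, was lower in SNEL lines, at -5.3, -5.22 and -5.45 against -2.09, -3.25 and -3.02, and above background on 1 of 6 SNEL arrays.

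The 2 smallest unadjusted p-values among higher genes belonged to Fgf22, an FGF ligand, and Pigb, a mannosyltransferase of GPI anchor synthesis, and both rested on slide 1. Fgf22 was -0.61, -0.26 and -0.57 on the slide 1 arrays of Nanog-GFP SNEL#3, Nanog-GFP SNEL#2 and Oct4-GFP SNEL#1, but -2.86, -2.98 and -2.53 on their second arrays. The ESC arrays ran from -3.28 to -2.87 for Fgf22, and the KH2 ESC array of slide 1 was the lowest of them. Averaged per line the difference was 1.37 ± 0.15 (SE, limma adjusted p = 0.153), and it was 0.17 without the 8 arrays of slide 1. A second Fgf22 probe differed by -0.53. Pigb was -1.12, -0.26 and -0.04 on the slide 1 arrays of the SNEL lines and -6.39, -7.13 and -5.78 on their second arrays, and its difference of 2.96 became -0.23 without slide 1. Dbpht2 likewise was detected on 3 of 6 SNEL arrays, with a difference of 4.25 within slide 1, 0.95 within slide 2 and -0.22 within slide 3. In all, 43 genes were over 1 log2 unit higher on the first than on the second array in every SNEL line and 176 were over 1 lower, against 24 and 293 in the 3 ESC lines. The 2 arrays of a line did not share slides in the same way in both groups, and array, slide and culture cannot be told apart here.

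**Figure D3:**
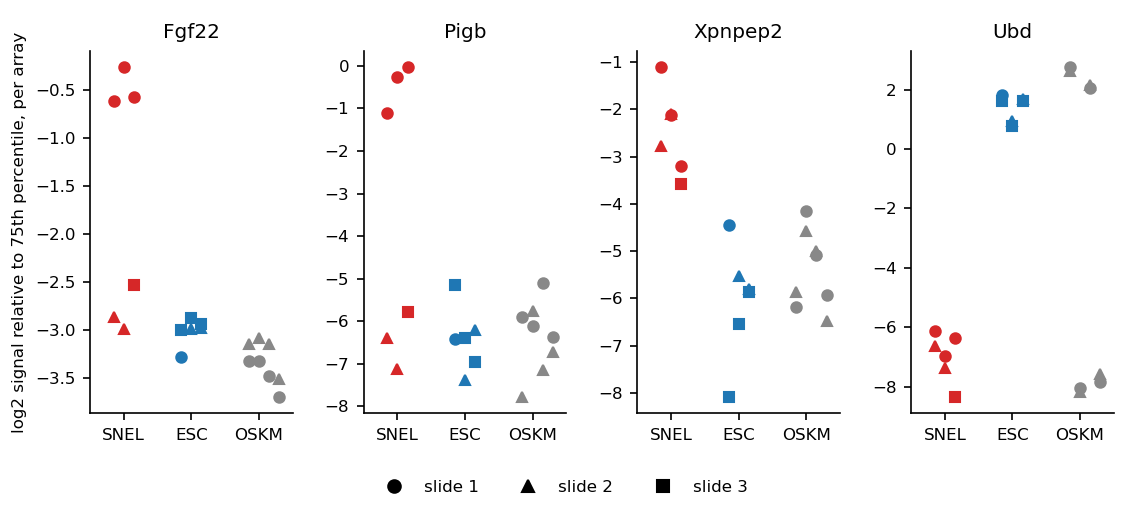
Each point is 1 array: log2 signal relative to its 75th percentile for Fgf22, Pigb, Xpnpep2 and Ubd in the SNEL, ESC and OSKM groups, with the symbol giving the slide (the vertical scale differs between panels). Fgf22 and Pigb are high on the 3 slide 1 arrays of SNEL lines and on no other array, whereas Xpnpep2 is high and Ubd low on all 6 SNEL arrays.

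Levels of pluripotency genes overlapped between the groups in nearly all members, as they did in most genes tested. All 12 pluripotent markers were above background on all 6 SNEL and all 6 ESC arrays, and their summed signal, in units of the 75th percentile, was 990 to 1170 in SNEL lines and 1010 to 1110 in ESC lines. Of 29 naive pluripotency genes 22 were higher and 7 lower in SNEL lines, with a median of 0.08, and over all genes tested 11583 of 27161 were higher. The line medians, relative to the ESC mean, were 0.22 and 0.24 in Nanog-GFP SNEL#3 and SNEL#2 but -0.2 in Oct4-GFP SNEL#1. Zfp42, a member of the list, was 6.6, 6.22 and 4.09 in the same order, against 5.99 to 6.26 in ESC lines, and 4.13 in Oct4-GFP OSKM#2. Of the 29 genes, 0 had all SNEL lines above the ESC lines (beside 2.82% of all genes) and 1 had them below (beside 10.5%). The latter was the methylcytosine dioxygenase Tet2 (-0.24 ± 0.16, SE), whose nearest SNEL and ESC lines both round to 3.44. Fbxo15, an F-box gene much used as an ESC marker, was the member with the smallest p and was 5.99, 6.33 and 6.26 against 5.57, 6.13 and 5.64 (0.41 ± 0.18, SE, limma adjusted p = 0.604).

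The 4 genes delivered to make SNEL lines had levels that overlapped those of the ESC lines. Nanog was 6.72, 6.81 and 7.44 in Nanog-GFP SNEL#3, Nanog-GFP SNEL#2 and Oct4-GFP SNEL#1 against 7.19, 7.14 and 7.17 (-0.18 ± 0.21, SE). Esrrb, an orphan nuclear receptor, was 7.67, 7.92 and 7.41 against 7.56, 7.64 and 7.57 (0.08 ± 0.15, SE), and Sall4, a zinc finger factor, was 4.9, 4.75 and 4.31 against 4.54, 4.67 and 4.12 (0.21 ± 0.21, SE). Lin28a varied most: it was 5.46 and 5.18 in the Nanog-GFP SNEL lines, 2.32 in Oct4-GFP SNEL#1, and 5.6, 3.86 and 4.76 in the ESC lines (-0.42 ± 0.9, SE). Whether a probe also reads transgene RNA was not tested. Of the OSKM set, Pou5f1 (Oct4) was 6.61 and 6.49 in the Nanog-GFP SNEL lines and 5.35 in Oct4-GFP SNEL#1, and 5.35 as well in Oct4-GFP ESCs against 6.55 in KH2 and 6.49 in Nanog-GFP ESCs. Sox2 (0.26 ± 0.2, SE), Klf4 (0.41 ± 0.32, SE) and Myc (0.1 ± 1.27, SE) also overlapped.

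Fibroblast and matrix genes were lower in 30 of 37 tested members, with a median difference of -0.76, but the median was -1.01 and -1.24 in the Nanog-GFP lines and 0.22 in Oct4-GFP SNEL#1, relative to the mean of the ESC lines. It was -0.16 with normexp background correction and -0.08 over members above background on all 12 arrays, and 17 of the 37 were above it there. Of the 37 genes 2 had all SNEL lines below all ESC lines (beside 10.5% of all genes). The OSKM lines were low as well: list medians were -0.53 in Nanog-GFP OSKM#2, -0.23 in Oct4-GFP OSKM#2, -0.44 in KH2_OSKM and -1.01 in BC_2 OSKM. The median of SNEL minus OSKM was 0.14. Col1a1, the chain of fibrillar collagen I, was -5.08, -1.32 and 1.61 in Nanog-GFP SNEL#3, Nanog-GFP SNEL#2 and Oct4-GFP SNEL#1 against 1.7, 1.67 and 0.74, and Postn, a matricellular protein, was -6.25, -6.83 and -3.6 against -2.88, -3.42 and -4.01. In both genes every OSKM line was below every ESC line, at -3.56 to -0.5 for Col1a1 and -7.98 to -6.44 for Postn. In such bulk RNA fewer cells of a type and less RNA per cell cannot be told apart. Of 12 fibroblast markers 4 were above background on all 6 SNEL arrays and 11 on all 6 ESC arrays, and their summed signal was 196 to 260 in SNEL and 200 to 218 in ESC lines. Fewer probes of any kind were detected in SNEL lines (line means 55.4% against 64.5%), and the marker counts were not corrected for that.

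The contractile gene Acta2, smooth muscle actin, was -4.11, -2.1 and -1.02 in SNEL lines against 1.57, -1 and -0.75 in ESC lines (-2.35 ± 0.84, SE, limma adjusted p = 0.524), and Tagln, an actin-binding protein, was -1.26, -0.47 and -0.32 against 1.88, -0.02 and -0.17. KH2 ESCs were the highest line in both. The OSKM lines also lay below every ESC line, at -3.77 to -2.97 for Acta2 and -1.26 to -0.93 for Tagln. Of 15 contractile genes 10 were lower (median -0.29), 3 of them without overlap (beside 10.5% of all genes). The line medians were -0.77, -0.32 and -0.32 in Nanog-GFP SNEL#3, Nanog-GFP SNEL#2 and Oct4-GFP SNEL#1. Of 18 mesendoderm genes 13 were lower (median -0.29), 4 without overlap (beside 10.5% of all genes), and the median was -0.72 without Oct4-GFP SNEL#1. Foxa2, a pioneer factor of endoderm, was -4.57, -4.49 and -3.53 against -2.97, -2.88 and -3.17 (-1.19 ± 0.34, SE, adjusted p = 0.435). Pou3f1, a factor of the primed epiblast and neural plate, was -0.86, -1.36 and -0.71 against 0.19, -0.38 and -0.2 (-0.84 ± 0.28, SE, adjusted p = 0.501). Of 18 primed epiblast genes 11 were lower (median -0.13) and of 22 primitive endoderm genes 14 (median -0.21), with Gata4 at -2.02, -1.89 and -1.1 against -1.41, -0.71 and -1.31. Neuroectoderm genes (median -0.02, 10 of 18 lower) and trophoblast genes (median -0.24, 9 of 15 lower) held 0 and 2 members without overlap on the lower side, the latter near the 10.5% of all genes.

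Among stress and growth-control genes, p53 targets were higher in 27 of 34 members, with a median of 0.22. Of the 34, 3 had all SNEL lines above all ESC lines (beside 2.82% of all genes). Phlda3, an inhibitor of Akt, was 4.64, 4.9 and 4.85 against 3.98, 4.35 and 3.95 (0.71 ± 0.15, SE, limma adjusted p = 0.392), and its difference was 0.8, 0.51 and 0.76 within the 3 slides. Eda2r, a death-receptor family member, was -2.69, -2.54 and -2.22 against -3.54, -2.96 and -3.55 (0.86 ± 0.24, SE, adjusted p = 0.417), and cyclin G1 (Ccng1) was 3.43, 3.78 and 3.32 against 3.07, 3.3 and 3.01 (0.38 ± 0.15, SE, adjusted p = 0.569). In these 3 genes every SNEL line lay above every ESC line, by 0.3, 0.27 and 0.02 at the nearest lines. For Phlda3 the OSKM lines were as high (4.75 to 4.98). Against their own ESC line by name the p53 list had medians of -0.13 and 0.07 in the Nanog-GFP SNEL lines and 0.34 in Oct4-GFP SNEL#1.

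Cdkn2b, the p15 inhibitor of cyclin D kinases, was -2.3, -2.58 and -1.71 in SNEL lines against -0.67, -0.67 and -0.89 in ESC lines (-1.45 ± 0.34, SE, limma adjusted p = 0.392), and a second probe differed by -0.96. It was the member of 22 cell cycle inhibitors and cyclins with the smallest p (10 higher, 12 lower, median -0.06). Egr1, an immediate early ERK target, was -0.85, -0.63 and -2 against -2.75, -2.1 and -3.46, with 0.09 between the nearest lines (1.61 ± 1.04, SE, limma adjusted p = 0.801). It ran from -4.2 to 0.7 in the OSKM lines. The ERK target list held 10 higher and 4 lower genes (median 0.11). Id2, a BMP target that blocks helix-loop-helix factors, was -0.23, 1.42 and -0.21 against -0.88, -0.65 and -1.82 (1.44 ± 0.77, SE, limma adjusted p = 0.706). Smad7, a feedback inhibitor of the pathway, was 1.41, 1.8 and 1.47 against 1.22, 1.26 and 0.91 (0.43 ± 0.23, SE, adjusted p = 0.707). The BMP and Nodal list as a whole was even (14 higher and 12 lower, median 0.02). So were Wnt targets (7 and 7, median -0.04), DNA damage repair genes (12 and 14, median -0.03), DNA methylation genes (12 and 13, median 0) and the Bcl2 family (8 and 11, median -0.09). Glycolysis genes were higher in 6 and lower in 15 (median -0.08), histone variants in 4 and 9 (median -0.08), and interferon response genes in 14 and 7 (median 0.11). In each of these lists 0 members passed the adjusted threshold, which follows from the 0 of all 27161 genes tested that passed it.

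**Figure D4:**
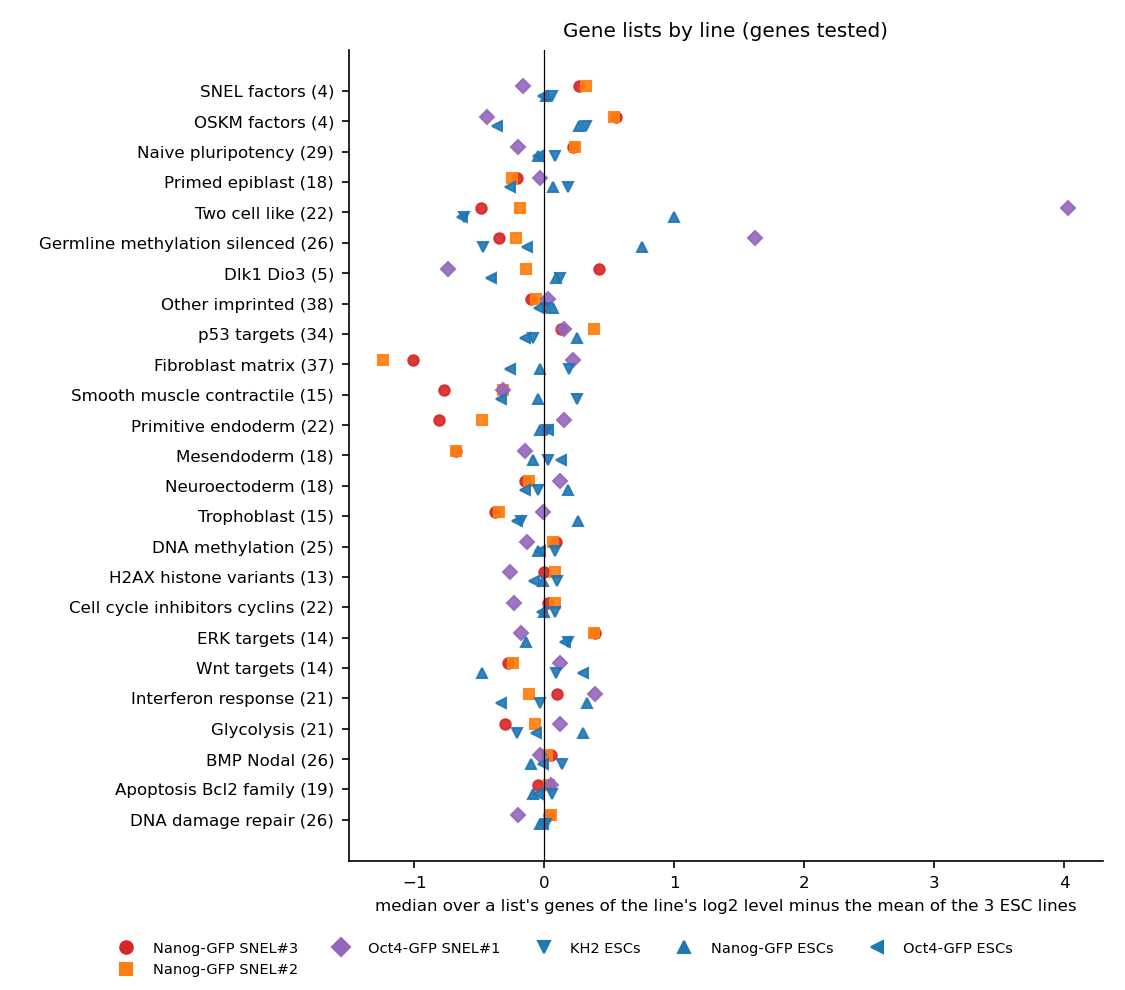
Each marker is the median over a list's tested genes (number in brackets) of a line's log2 level minus the mean of the 3 ESC lines, for SNEL lines (colour) and ESC lines (blue). Nanog-GFP SNEL#3 and SNEL#2 lie below all ESC medians in fibroblast, primitive endoderm and mesendoderm lists, and Oct4-GFP SNEL#1 lies at 4.03 in the 2-cell-like list.

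At the Dlk1-Dio3 locus, where loss of the maternally expressed RNAs is a known mark of imprinting failure in iPSC lines, all SNEL lines expressed Meg3 and Mirg. Meg3 was 6.73, 6.12 and 4.25 in Nanog-GFP SNEL#3, Nanog-GFP SNEL#2 and Oct4-GFP SNEL#1 against 5.1, 5.3 and 4.58 in the ESC lines (0.71 ± 1.24, SE, limma adjusted p = 0.984). The Nanog-GFP SNEL lines lay above the ESC lines and Oct4-GFP SNEL#1 below. Mirg was 4.94, 4.19 and 1.26 against 3.45, 2.54 and 2.36 (0.68 ± 1.2, SE). The paternally expressed Dlk1 and Dio3 differed by -0.25 ± 0.53 and 0.26 ± 0.38 (SE), and the antisense transcript Dio3os by -0.6 ± 0.31 (SE). Rian had no probe of that name and Rtl1 did not pass the filter on dim probes.

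Of 38 other imprinted genes 18 were higher and 20 lower (median -0.02), 1 without overlap on the higher and 5 on the lower side, both near the shares over all genes (2.82% and 10.5%). Mest, a paternally expressed hydrolase gene, showed the widest difference, 5.24: it was 3.15, 2.36 and 1.24 in SNEL lines and -4.75 in KH2, -7.32 in Nanog-GFP and 3.09 in Oct4-GFP ESCs. The ESC lines themselves thus spanned over 10 log2 units, and the groups overlapped (limma adjusted p = 0.765). Igf2, a paternally expressed growth factor, was -5.32, -5.42 and -5.36 against -3.53, -4.28 and -4.67 (-1.21 ± 0.27, SE, adjusted p = 0.392), with a difference of -2.47 within slide 1 and -0.32 and -0.33 within slides 2 and 3. Ascl2, a maternally expressed trophoblast factor, was 2.37, 1.8 and 2.57 against 2.84, 3.14 and 3.33 (-0.86 ± 0.28, SE, adjusted p = 0.488), and Peg3, a paternally expressed zinc finger gene, was 0.12, -0.16 and -1.09 against -1.38, -1.21 and -1.92 (1.13 ± 0.49, SE, adjusted p = 0.608). Ascl2 was higher still in the OSKM lines (3.48 to 4.37, SNEL minus OSKM -1.64, adjusted p = 0.442).

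The sex-linked gene Ddx3y, a Y-encoded RNA helicase, was -0.1, 0.93 and 1.21 in the SNEL lines, -1 in KH2 and -0.52 in Oct4-GFP ESCs, and -8.08 in Nanog-GFP ESCs. Its difference of 3.88 ± 1.92 (SE, limma adjusted p = 0.669) therefore rests on 1 ESC line, in which Eif2s3y (-7.89) and Uty (-7.93) were also at background. The Nanog-GFP SNEL lines and the ESC line of that name thus differ in Y-linked RNA. The reproductive homeobox genes Rhox6 and Rhox9 on the X chromosome were 0.77, 0.16 and 1.27 against -0.35, 0 and -0.81 (1.12 ± 0.53, SE, adjusted p = 0.65) and 1.95, 1.58 and 2.63 against 0.83, 1.69 and 0.56 (1.03 ± 0.43, SE, adjusted p = 0.584). Of 26 germline genes silenced by methylation 19 were higher (median 0.42), 4 without overlap (beside 2.82% of all genes). The line medians were -0.35 and -0.22 in Nanog-GFP SNEL#3 and SNEL#2 and 1.62 in Oct4-GFP SNEL#1, so the positive median rests on that line. Nanog-GFP ESCs were at 0.75. The OSKM lines were at 0.84 (Nanog-GFP OSKM#2), 1.03 (Oct4-GFP OSKM#2), 0.97 (KH2_OSKM) and 0.9 (BC_2 OSKM).

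The 3 SNEL lines also differed among themselves. With each line as its own group, 12637 of 27037 genes (46.7%) differed among the 3 SNEL lines at an adjusted p under 0.05 (limma F test), where the error is the spread between the 2 arrays of a line, which may be technical. Between the Nanog-GFP lines SNEL#3 and SNEL#2, 4290 genes (15.9%) passed, of which 857 by over 2-fold. Oct4-GFP SNEL#1 differed from SNEL#3 in 11818 genes (43.7%) and from SNEL#2 in 10689 (39.5%). The 3 lines lay 0.757, 0.736 and 0.781 from the ESC lines on average, but their nearest ESC lines differed. Oct4-GFP SNEL#1 was nearest Nanog-GFP ESCs (0.577) and farther from KH2 and Oct4-GFP ESCs (0.895 and 0.873). Nanog-GFP SNEL#3 and SNEL#2 were nearest KH2 ESCs (0.66 and 0.672) and farthest from Nanog-GFP ESCs (0.882 and 0.79).

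Genes of the 2-cell-like state, a rare state of ESC cultures that resembles the early embryo, set Oct4-GFP SNEL#1 apart from the other SNEL lines. Zscan4f, a telomere-regulating zinc finger gene of that state, was 4.33 in Oct4-GFP SNEL#1, -5.22 in Nanog-GFP SNEL#3 and -2.35 in Nanog-GFP SNEL#2, and -4.06, 0.61 and -3.13 in KH2, Nanog-GFP and Oct4-GFP ESCs. Gm428, another gene that led this line, was 1.3 there and -6.36 and -7.15 in the other SNEL lines. Across the 22 tested 2-cell-like genes the medians relative to the ESC mean were -0.49, -0.19 and 4.03 in Nanog-GFP SNEL#3, Nanog-GFP SNEL#2 and Oct4-GFP SNEL#1. The OSKM line Oct4-GFP OSKM#2 was at 3.34, and Nanog-GFP OSKM#2, KH2_OSKM and BC_2 OSKM were at 1.48, 1.17 and 1.77. Nanog-GFP ESCs were at 1, and KH2 and Oct4-GFP ESCs at -0.62 and -0.63. Zscan4 genes are near-identical copies, which a probe may not tell apart. Stra8, a gene of meiotic entry, followed the same order (-2.11, 1.51 and 5.34).

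Other genes were near background in a single SNEL line. Rbbp9, a serine hydrolase gene, was -6.27 in Oct4-GFP SNEL#1 against 1.05 and 1.03 in the Nanog-GFP SNEL lines and 1.06 to 1.45 in the ESC lines. Gc, the vitamin D binding protein, was -7.15 there against -0.04 and 0.07, and Pnp2, a purine nucleoside phosphorylase, -5.96 against 1.25 and -0.01. The same 3 genes were low in Oct4-GFP OSKM#2, at -7.16, -8.14 and -6.48. Second probes of Rbbp9 and Gc gave SNEL minus ESC differences of -0.19 and -0.17, so they do not show the low level of the first. In the Nanog-GFP SNEL lines, Col1a1 was lowest in SNEL#3, and Gk, a glycerol kinase gene, was -4.16 in SNEL#2 against -0.54 in SNEL#3 and -1.35 in Oct4-GFP SNEL#1.

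**Figure D5:**
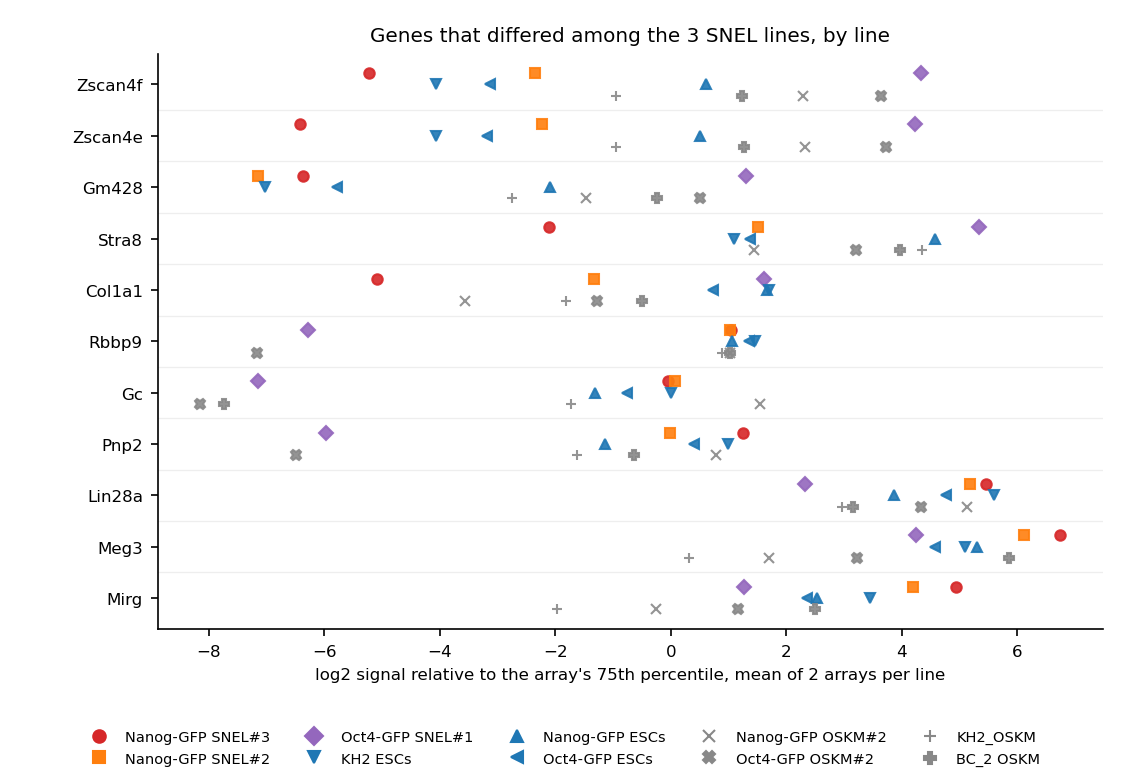
Each marker is the level of a gene in 1 line, as log2 signal relative to the array's 75th percentile, for 11 genes that differed among the SNEL lines (SNEL lines in colour, ESC lines in blue, OSKM lines in grey). Oct4-GFP SNEL#1 is the highest SNEL line for Zscan4f, Zscan4e, Gm428, Stra8 and Col1a1 and the lowest for Rbbp9, Gc, Pnp2, Lin28a, Meg3 and Mirg.

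The direct contrast of SNEL and OSKM lines compared lines made with either factor set. The labels grade 3 of the 4 OSKM lines as poor and BC_2 OSKM as good, so factor set and grade cannot be told apart. Of 27161 genes 2 (0.00736%) passed the adjusted threshold, both higher in SNEL lines. Fgf22 was 1.7 ± 0.14 higher (SE, limma adjusted p = 0.0168), but 0.43 without the arrays of slide 1 (adjusted p = 0.666). Grem1, a secreted BMP antagonist, was -4.48, -4.61 and -3.4 in SNEL lines, -3.44, -4.41 and -4.15 in ESC lines, and -7.79, -7.45, -7.27 and -7.68 in OSKM lines. SNEL and ESC lines overlapped, and every OSKM line lay lower. Its probe was above background on 3 of 6 SNEL, 6 of 6 ESC and 0 of 8 OSKM arrays. With dim OSKM levels raised to the lowest level well above background on each array, SNEL lines were 3.18-fold higher. That value is no lower bound, since the probe was not detected on every SNEL array either. As measured, the means were -4.16 and -7.55 (difference 3.38 ± 0.33, SE, limma adjusted p = 0.0396). The difference was 3.25 without slide 1 (adjusted p = 0.454). Without slide 1, 0 genes passed in this contrast. The count also was 0 without any of Nanog-GFP SNEL#3, Nanog-GFP SNEL#2, Nanog-GFP ESCs, Oct4-GFP ESCs, Nanog-GFP OSKM#2 or KH2_OSKM, 1 without BC_2 OSKM, 10 without Oct4-GFP OSKM#2 and 338 without Oct4-GFP SNEL#1. For Olig2 and Xpnpep2, SNEL minus OSKM was -3.53 (adjusted p = 0.458) and 2.93 (adjusted p = 0.446), and for Ubd -4.21 (adjusted p = 0.616).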

How the data were processed

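RNA of 10 cell lines was hybridised to 20 one-colour Agilent arrays, 2 per line. The deposited scanner files hold intensity values that Feature Extraction 10.1.1.1 had background-corrected (processed signal), per the file headers. The authors' deposited value table holds log2 values of the same arrays, with column medians between 6.2663 and 6.2801, and served as an alternative; its normalization is not given in the sources used here. Control spots and outlier values were left out, spots of a probe were averaged, and log2 processed signal minus the array's 75th percentile was taken (percentile signals of 513 to 914). Of 55681 probes 38756 were well above background on 4 or more arrays, and the probe with the highest mean stood for each of 27161 genes. The 2 arrays of a line were averaged, and limma 3.58.1 in R 4.3.3 was fitted to all 10 lines with Benjamini-Hochberg adjustment over all genes. Differences among SNEL lines used the arrays. The test was tried on simulated data. Alternatives covered normalization, background, filters, blocks, slides and leaving out each line. Genes were named by fixed rules (smallest p, widest gap between groups, the leading members of each list, widest differences of each SNEL line); Gm10499, Dbpht2 and a few others were chosen after their values were seen. The members and lists were chosen with earlier results of these data known. The number of arrays limits the precision.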

Additional observations from a re-analysis of the deposited data

Results flagged for a closer look

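In the contrast of SNEL and OSKM lines, 2 genes passed the adjusted threshold (limma): Fgf22, higher by 1.7 on the log2 scale, and Grem1, higher by 3.38. Fgf22 was high only on the slide 1 arrays of the SNEL lines, and Grem1 was at background in all 4 OSKM lines.

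Set against the ESC line that shares their name, Nanog-GFP and Oct4-GFP SNEL lines had list medians of opposite sign in 17 of 25 gene lists, and in 3 of these all 3 medians were over 0.5 in size. The median of the 2-cell-like list was -0.9 in Nanog-GFP SNEL#3 and -1.41 in Nanog-GFP SNEL#2 against Nanog-GFP ESCs, and 5.22 in Oct4-GFP SNEL#1 against Oct4-GFP ESCs. The germline list gave -1.02, -1.03 and 1.82 in the same order, and the ERK target list 0.77, 0.65 and -0.51. The ESC lines used as references differed in these lists as well. Relative to the mean of the 3 ESC lines, Nanog-GFP and Oct4-GFP ESCs were at 1 and -0.63 in the 2-cell-like list. They were at 0.75 and -0.13 in the germline list, and at -0.14 and 0.16 in the ERK target list. These differences between the lines were not tested.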

How the results depend on the processing

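Of the results recomputed under each alternative, 3554 values kept their direction and their side of the threshold, 23 reversed, 16 moved, 26 passed a threshold or rose in count, and 8 no longer passed or dropped in count. The count of 0 genes between SNEL and ESC lines became 2 with normexp (Pigb and Fgf22), 3 with the SNEL and ESC lines alone, 3 with line as a random block, and 0 to 47 when 1 line was left out (47 without Oct4-GFP SNEL#1, 4 without Oct4-GFP OSKM#2). SNEL against OSKM lines gave 7 with quantile normalization, 1 without the filter, 11 with slide as a block, and 0 to 338 when 1 line was left out.

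The replicate number as a block gave 2 genes between SNEL and ESC lines (Tnik and LOC100047302), and 47 between SNEL and OSKM lines. Differences between first and second arrays correlated between -0.0964 and 0.513 over 45 pairs of lines, and the numbers were not taken to pair the samples.

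The fibroblast median moved to -0.16 with normexp, to -0.08 over genes above background on all 20 arrays, and to -0.08 over those above it on all 12 (chosen after seeing the data). The Bcl2 family median was -0.02 with normexp and 0.02 with the name stem as a block. The sign turned with normexp for Ano7 (0.03), Peg10 (0.09) and Pou5f1 (-0.01), with the authors' value table for Esrrb (-0.03), and with the mean of probes for Nkd1 (0.16) and Peg10 (0.12). It also turned with slide as a block for Pou5f1 (-0.1), with the name stem as a block for Dlk1 (0.01), and without slide 1 for Pigb (-0.23) and Pou5f1 (-0.03), the last alternative chosen after seeing the data. The causes were not tested.

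When 1 line was left out, medians ran from -0.09 to 0 for the Bcl2 family, -0.12 to 0.11 for cell cycle genes, -0.12 to 0.06 for DNA methylation genes, -0.72 to -0.2 for mesendoderm, -0.12 to -0.01 for other imprinted genes, -0.28 to 0.06 for primed epiblast, -0.07 to 0.29 for the SNEL factors and -0.26 to 0.04 for trophoblast. Single genes ran from -0.05 to 1.8 (Dkk1), -0.79 to 0.09 (Dlk1), -0.05 to 0.21 (Esrrb), -0.25 to 2.13 (Hand1), -0.99 to 0.58 (Lin28a), -0.06 to 1.78 (Mirg), -1.06 to 1.05 (Myc) and -0.37 to 0.42 (Pou5f1).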
